A study of Mus musculus with 16 samples.

Results

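The genes described here encode the proteins of the cytosolic ribosome. They were taken from the table of normalised counts by symbol: Rpl or Rps followed by a digit, or Rplp0, Rplp1, Rplp2 or Rpsa, leaving out named pseudogenes (-ps) and the Rps6k kinases. This gave 88 of the 11831 genes in that table. Of these, 46 are proteins of the large subunit and 31 of the small subunit, together the 77 core genes. A further 4 are paralogs (Rpl7l1, Rpl22l1, Rps27l and Rpl36al), and 6 are processed copies of a parent gene that the annotation lists mostly as pseudogenes (Rps27rt, Rpl37rt, Rpl6l, Rps3a2, Rps3a3 and Rps4l). Rps19bp1 met the rule by name but encodes a binding partner of Rps19 and no ribosomal protein. A further 4 symbols in the raw count tables met the rule and did not reach the table's minimum of 100 counts in a group mean: Rpl3l and Rpl39l, with at most 72 and 24 counts in a library, and Rpl10l and Rps12l1, at 0 in every library.

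The libraries came from MPP3 and MPP4 cells, multipotent progenitors of C57BL/6 bone marrow with a myeloid and a lymphoid bias, sorted as lineage-negative, Sca1+ cKit+ cells that were CD150- CD48+, and for MPP4 also Flt3+. The 16 libraries formed 4 groups of 4: MPP3 WT, MPP3 KO, MPP4 WT and MPP4 KO. Per the sample labels all mice carried floxed Ebf1 alleles (Ebf1fl/fl), WT mice without Cre (Tie2Cre+/+) and KO mice with the Tie2Cre transgene, in which the Tek (Tie2) promoter drives Cre in endothelial and blood-forming cells. The design text of the series names Tie2Cre in both genotypes, so allele and transgene cannot be told apart as the difference between the groups. WT mice 1 to 4 were 12, 11, 12 and 11 weeks old and KO mice 1 to 4 were 10, 9, 11 and 11 weeks old, with 2 females and 2 males in each genotype, so that age differed with genotype. MPP3 and MPP4 libraries of equal genotype and number shared sex and age and deviated from their group means together, and they were treated as coming from 1 mouse.

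A ribosome is built in the nucleolus from ribosomal RNA and one copy of almost every ribosomal protein, so cells need the proteins in matched amounts. Their mRNAs are short and abundant, and most begin with a terminal oligopyrimidine (TOP) motif, a cytosine followed by a run of pyrimidines, through which mTORC1 and its target Larp1 adjust their translation. In blood formation the group is known for Diamond-Blackfan anaemia, in which loss of 1 allele of one of many ribosomal protein genes impairs red cell production. Counts of mRNA do not measure this translation.

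Totals lay between 24823708 and 48703193 counts per library. Flt3, which defines the MPP4 gate, was at 280 ± 25.2 CPM (TMM-normalised counts scaled to library size, SD, n = 4) in MPP3 WT and 1224 ± 91.8 in MPP4 WT, with no overlap. Ebf1 counts went against the genotype label in MPP4: 187, 98, 199 and 263 counts in the WT libraries and 817, 928, 488 and 642 in those labelled KO. In MPP3 they were 5, 21, 91 and 82 in WT and 23, 6, 84 and 6 in KO. The gene counts do not show which part of Ebf1 these reads cover, and below KO means the libraries labelled KO. In bulk libraries, fewer cells of a type and less RNA per cell cannot be told apart.

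The start of a transcript carries the TOP motif, so the sequence around annotated starts is shown for members described in the results and for Rps27rt, the processed copy of Rps27. The RefSeq table of promoters (GRCm38.p6) held 75 windows for 64 of the 88 genes. A C at the annotated start followed by at least 4 bases that were each C or T was searched on the transcribed strand only. It was present in 14 of the 75 windows (18.7%), each of a different gene, against 2.51% of all 32851 windows. The 14 genes were Rpl14, Rpl15, Rpl28, Rpl35, Rpl35a, Rpl38, Rplp2, Rps6, Rps10, Rps15a, Rps18, Rps21, Rps27 and Rps27rt. In the sequences below, which run from 15 bases before the annotated start to the 15th base of the transcript, 5′ to 3′, capitals mark the unbroken pyrimidine run from the start where the motif was met.
Rps6: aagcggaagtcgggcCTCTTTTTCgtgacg
Rps27: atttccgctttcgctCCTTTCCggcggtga
Rps27rt: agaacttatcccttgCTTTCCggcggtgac
Rps21: taccgaggacccgccCTCCTgcccaatagt
Rplp2: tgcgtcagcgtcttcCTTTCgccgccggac
Rpl27a: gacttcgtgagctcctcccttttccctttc
Rpl11: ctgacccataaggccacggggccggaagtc
Rpl36a: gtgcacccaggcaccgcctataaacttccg
The windows lie at chr4:86857353-86857382 for Rps6, chr3:90213634-90213663 for Rps27 and chr9:114982725-114982754 for Rps27rt on the minus strand. Rps21 (chr2:180257364-180257393), Rplp2 (chr7:141447636-141447665), Rpl27a (chr7:109519180-109519209) and Rpl36a (chrX:134585639-134585668) lie on the plus strand, and Rpl11 (chr4:136053379-136053408) on the minus strand. The first 5 meet the motif and the last 3 do not. Rps21 has another annotated start, whose window lacks it. Rpl27a shows how far the search depends on the annotated base, since its window holds a long pyrimidine run that the annotated start falls inside. The windows of Rps27 and its processed copy Rps27rt share a run of 14 bases, so reads of these genes may not be told apart.

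Levels of the members were compared per kilobase of the shortest principal transcript. The core genes had a median of 808 CPM per kilobase over all libraries. Rpl32, a large subunit protein, was highest at 4832, followed by Rps19, the small subunit protein whose gene was the first linked to Diamond-Blackfan anaemia, at 3612, and Rpl13 at 2624. In CPM without the length, Rpl4 was the most abundant member at 3549.9, and Rplp0, the base of the ribosomal stalk, stood at 3077. Of the stalk proteins, Rplp0 had 2266 CPM per kilobase, Rplp1 1299 and Rplp2 1059.6. The lowest core gene was Rpl24, a large subunit protein, at 10.6 CPM per kilobase, with values between 5.62 and 8.45 CPM in the 16 libraries. Another annotated gene overlaps Rpl24, and its level is uncertain. The paralogs had a median of 282 CPM per kilobase, below the core median. Rpl22 and its paralog Rpl22l1 stood at 392 and 180.1, and Rps27 and its paralog Rps27l at 1569 and 479.9.

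Processed copies limit how well single members are measured. Named pseudogenes with counts existed for 58 of the 88 genes, and for 25 they summed to more than 10% of the gene's own counts. The sum was 89.8% for Rpl36a, 49.2% for Rps15a and 47.1% for Rpl34. Rpl37rt, a copy of Rpl37, took 371 CPM on average, more than the 306 of Rpl37 itself. Between replicates the median coefficient of variation of the members was 5.68% in MPP3 WT, 5.91% in MPP3 KO, 4.89% in MPP4 WT and 9.09% in MPP4 KO.

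Together the 88 genes took about 6% of all counts, less in MPP3 than in MPP4 and less in WT than in KO. The MPP3 WT libraries 1 to 4 gave 5.88%, 5.49%, 5.86% and 5.89%, and the MPP3 KO libraries 6.25%, 6.61%, 6.23% and 6.03%. All MPP3 KO libraries therefore lay above all MPP3 WT libraries. The MPP4 WT libraries gave 6.54%, 5.98%, 5.90% and 6.11%, and the MPP4 KO libraries 6.52%, 6.80%, 6.87% and 6.18%. In MPP4 the genotypes overlapped, since WT mouse 1 was above KO mice 1 and 4. Group means were 5.78% ± 0.196 in MPP3 WT, 6.28% ± 0.241 in MPP3 KO, 6.13% ± 0.283 in MPP4 WT and 6.59% ± 0.314 in MPP4 KO (SD, n = 4). Within a mouse, MPP4 was above MPP3 in all 8 mice, by between 0.0446 percentage points in WT mouse 3 and 0.657 in WT mouse 1. These shares are described without a test.

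**Figure D1:**
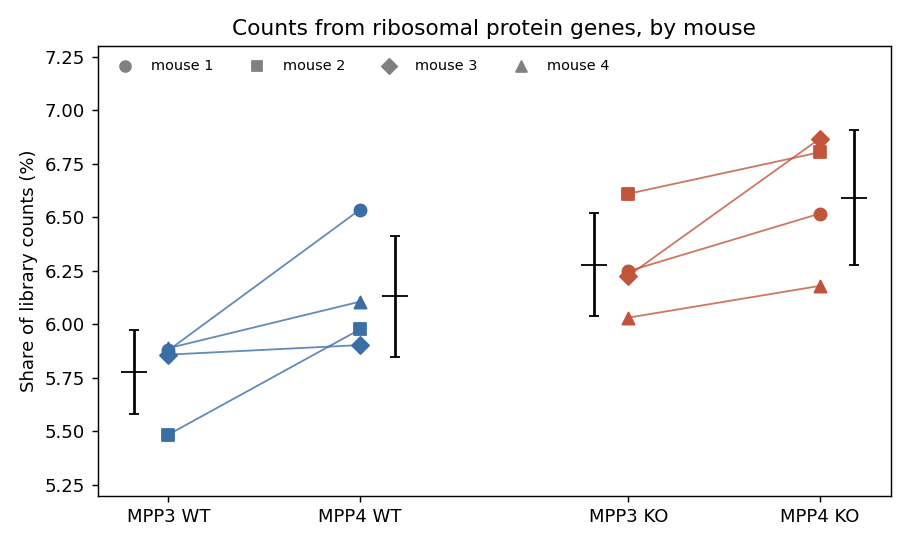
Share of each library's counts that came from the 88 genes (y axis, percent, not starting at 0) for the 4 groups. Each symbol is a library (blue WT, red KO), lines join the MPP3 and MPP4 libraries of a mouse, and black bars are the group mean with its SD. Every line rises from MPP3 to MPP4, from between 5.49% and 6.61% to between 5.90% and 6.87%.

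The core genes varied together across libraries. When each gene was set against its own mean over the 16 libraries, 0 of the 77 core genes were above their mean in the library of MPP3 WT mouse 2, and 76 were in that of MPP3 KO mouse 2. The mean deviation ranged from -0.20 (log2) in the former to 0.20 in the library of MPP4 KO mouse 3. The large subunit took 3.26% ± 0.0997 of counts in MPP3 WT, 3.54% ± 0.126 in MPP3 KO, 3.49% ± 0.135 in MPP4 WT and 3.72% ± 0.164 in MPP4 KO (SD, n = 4). The small subunit took 2.39% ± 0.0905, 2.59% ± 0.111, 2.51% ± 0.138 and 2.73% ± 0.155 in the same groups.

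**Figure D2:**
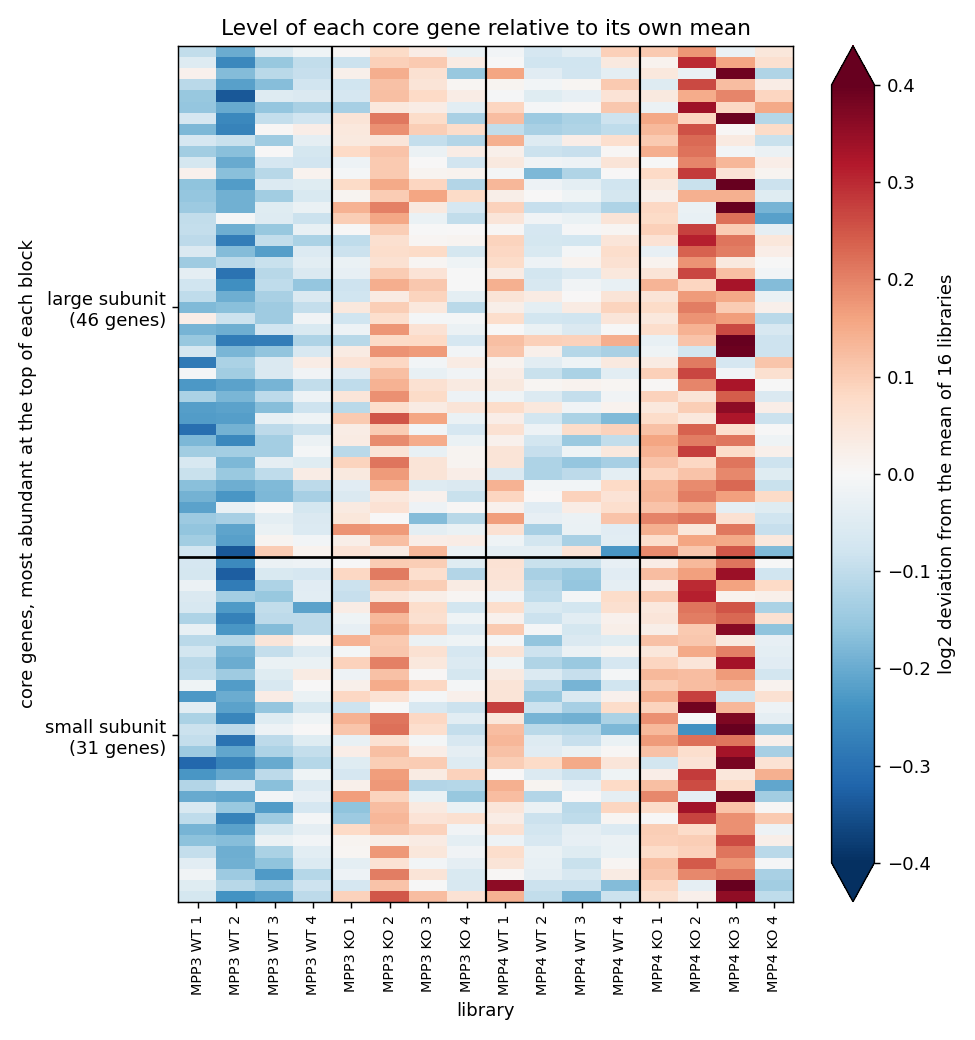
Log2 deviation of each of the 77 core genes (vertical axis, most abundant at the top of each subunit block) from its mean over the 16 libraries (columns), with colours limited to 0.4 in either direction. The MPP3 WT columns are mostly blue, with 0 to 9 genes above their mean in a library, and 3 of the 4 MPP4 KO columns are mostly red, with 68 to 71 genes above it.

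MPP3 and MPP4 cells of WT mice were compared to ask whether myeloid-biased and lymphoid-biased progenitors differ in these mRNAs. In MPP3, 10 of the 88 genes were lower and 0 were higher (edgeR quasi-likelihood test, FDR below 0.1 over all 11831 genes). Of all genes, 15.1% were called, 8.33% as lower and 6.8% as higher, so 10 of 88 is near the background. They included Rpl10a, Rpl11, Rpl27a, Rpl31, Rpl36, Rpl36a, Rpl37 and Rpl37a of the large subunit and Rps27 of the small subunit. The median difference of MPP3 from MPP4 was -0.10 (log2) over the members and -0.00039 over all genes, and 70 of the 88 values were negative. The 4 MPP3 values lay below the 4 MPP4 values in 22 members, as in 8.27% of all genes, and above them in 1, Rps3a3.

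Rpl36 (ENSMUSG00000057863, chr17:56613416-56614243), a large subunit protein, had the lowest log2 value. It was at 355, 324, 325 and 361 CPM in MPP3 WT and at 428, 421, 419 and 436 in MPP4 WT. The groups did not overlap, and the difference was -0.32 (log2, SE 0.087, FDR = 0.0225). Rps27 (ENSMUSG00000090733, chr3:90212522-90213651) is a zinc-finger protein of the small subunit. Its values were 433, 447, 467 and 497 CPM in MPP3 WT and 575, 567, 597 and 556 in MPP4 WT, again without overlap, a difference of -0.32 (SE 0.081, FDR = 0.0161). Rpl27a (ENSMUSG00000046364, chr7:109519147-109522367) had the smallest FDR of the members. It was at 188, 182, 188 and 195 CPM in MPP3 WT and 227, 214, 228 and 222 in MPP4 WT, a difference of -0.24 (SE 0.051, FDR = 0.00398). All MPP3 values of these genes lay below all MPP4 values.

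Rpl36a (ENSMUSG00000079435, chrX:134585654-134588062), which is X-linked, was at 228, 247, 262 and 265 CPM in MPP3 WT and 293, 277, 296 and 299.7 in MPP4 WT. Its difference of -0.22 (SE 0.064, FDR = 0.0350) was -0.069 and no longer called once its named pseudogenes were added to it. Rpl11, which with Rpl5 holds back Mdm2 when ribosome assembly fails, was at 403 ± 10.2 CPM in MPP3 WT and 454 ± 16.4 in MPP4 WT (SD, n = 4; -0.17, SE 0.056, FDR = 0.0578). Its partner Rpl5 was not called, at 705 ± 20.2 and 744 ± 21.1 CPM (-0.076, SE 0.077, FDR = 0.645). Rpl10a, Rpl31, Rpl37 and Rpl37a differed by between -0.21 and -0.15, with FDR values between 0.0652 and 0.0937. Rpl10a and Rpl31 also lost their calls when pseudogenes were added.

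The 4 highest values did not belong to core genes and none was called. The processed copies Rps3a3, Rps3a2 and Rpl6l were at 0.35, 0.26 and 0.25 (log2), and the p53-responsive paralog Rps27l at 0.10, with FDR values from 0.336 to 0.637. The copies stood at 3.97 to 7.07 CPM over all libraries. The laminin receptor Rpsa was at 772, 686, 714 and 757 CPM in MPP3 WT and 962, 749, 726 and 837 in MPP4 WT, and these groups overlapped (-0.16, SE 0.089, FDR = 0.326).

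**Figure D3:**
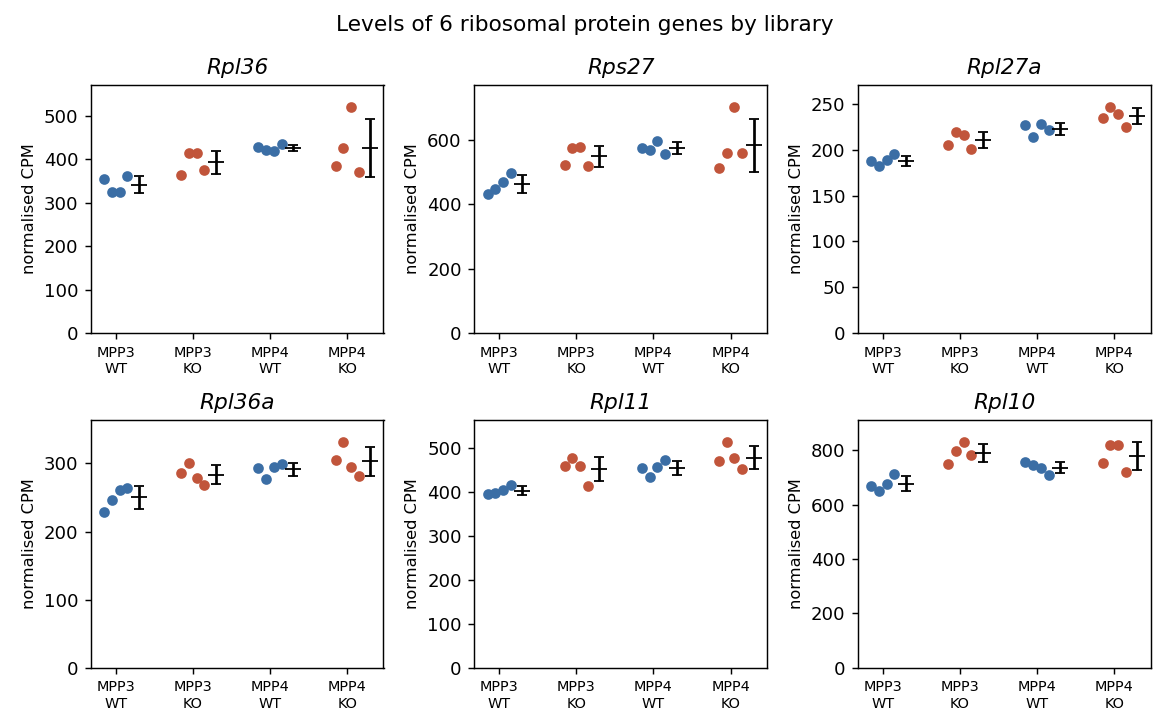
Normalised CPM (y axis, from 0) of 6 members in the 16 libraries, 4 points a group (blue WT, red KO), with black bars for the mean and SD. In MPP3 WT the 4 points of Rpl36, Rps27, Rpl27a, Rpl36a and Rpl11 lie below those of MPP4 WT, and for Rpl10 they lie below those of MPP3 KO.

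With the mouse as a block, 32 of the 88 genes were lower in MPP3 WT and 0 were higher, where 24.8% of all genes were called, 13.4% as lower and 11.3% as higher. They were 21 large subunit genes, 10 small subunit genes and Rps19bp1, with differences from -0.32 to -0.086. They held all of the 10 genes called without the block. Newly called were Rplp0, Rplp1, Rpl3 and Rpl4 of the large subunit and Rps6, the substrate of the S6 kinases, among others. Without mouse WT1, which had the largest within-mouse gap in share, 3 members (3.41%) were called, Rpl27a, Rpl36 and Rps27. Of all genes 12.8% were called there, so the share of members was below the background. The 3 members were also called in all 16 fits that left out 1 library. Leaving out MPP3 WT library 1, 2 or 3 gave 4, 4 and 5 calls, where 14.4%, 13.3% and 12.5% of all genes were called. Without MPP4 WT library 1, 3 or 4 there were 4, 6 and 4, where 13.7%, 11.6% and 12% of all genes were called. In each of these fits the share of members called was below the background.

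In KO mice the populations differed in the same direction with fewer calls. Only Rpl27a was called, lower in MPP3 KO at 205, 219.8, 216 and 201 CPM than in MPP4 KO at 235, 246, 239.7 and 226 (-0.17, SE 0.051, FDR = 0.0371), again without overlap. Of all genes 17.9% were called, 9.18% as lower, so the share of members called was below the background. The median over the members was -0.069 (log2) against -0.0079 over all genes, with 77 of 88 values negative. Of all genes 8.71% were called higher. Rpl27a was the 1 member without overlap, where 8.6% of all genes were lower without overlap. Rpl36 was at 364, 415, 416 and 376 CPM in MPP3 KO and 386, 426, 519.5 and 372 in MPP4 KO, and the groups overlapped (-0.12, SE 0.087, FDR = 0.471). Rpsa, the most negative core gene, was at 750.3, 795, 759.9 and 749 CPM in MPP3 KO and 845, 1038, 872 and 784 in MPP4 KO, which overlapped (-0.21, SE 0.089, FDR = 0.138). Of the positive values the largest was that of Rpl7l1, a paralog of Rpl7, at 0.12 (SE 0.069, FDR = 0.305). Over all members the most negative value was that of the processed copy Rps4l (-0.36, SE 0.23, FDR = 0.378).

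With the mouse as a block, 17 members were lower in MPP3 KO and 1, Rpl7l1, was higher, where 28.3% of all genes were called, 14.5% as lower and 13.8% as higher. Of the 17, 11 were also among the 32 of WT, 34.4% of the WT list and 64.7% of the KO list. These included Rplp0, Rplp1, Rpl27a, Rpl22 and Rpsa. Over both genotypes, 22 members were higher in the MPP4 library of all 8 mice and 0 were higher in MPP3 in all 8, where 11.2% of all genes were higher in MPP4 in every mouse and 10.3% in MPP3. Leaving out the library of MPP4 KO mouse 4, which had the lowest share in its group, raised the count from 1 to 9, where 18.4% of all genes were called, so that the share of members stayed below the background. Leaving out MPP3 KO library 4 or MPP4 KO library 2 left 0, where 15.1% and 14.3% of all genes were called. Leaving out MPP3 WT library 2, MPP4 WT library 1 or MPP4 KO library 1 gave 2, 3 and 3 calls. In these fits 17.8%, 17.9% and 15.3% of all genes were called, so the share of members again stayed below the background.

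Transcript length and markers of other cells were looked at beside these differences. By the summed length of all annotated exons, 33 of the 88 members had less than 1500 bases, with a median of -0.035 (log2) between MPP3 and MPP4 of WT and -0.061 in KO. The other 55 members had medians of -0.10 and -0.076. The shortest principal transcripts of the 83 members that have one had a median of 681 bases, so this is not a split by mRNA length. The 1189 genes outside the members with less than 1500 bases of exon had medians of 0.084 in WT and -0.012 in KO. Of the marker lists, only the neutrophil sum was without overlap between MPP3 WT and MPP4 WT. The summed level of 10 plasma and B cell genes was 533 to 1630 CPM in MPP3 WT and 1440 to 1533 in MPP4 WT, and 8 mature neutrophil genes summed to 22.02 to 52.0 and 4.55 to 11.0 CPM. Erythroid genes summed to 26.4 to 79.0 and 19.0 to 46.7 CPM and T cell genes to 12.6 to 21.0 and 10.0 to 17.3 CPM. Between the KO populations, both the plasma and B cell sum (375 to 717 CPM in MPP3 KO and 1368 to 1750 in MPP4 KO) and the neutrophil sum (20.4 to 92.1 and 6.98 to 18.05) did not overlap. Erythroid sums of 34.8 to 59.5 and 19.3 to 86.1 CPM and T cell sums of 11.7 to 29.005 and 11.6 to 16.8 CPM overlapped there. Single genes of the plasma and B cell list went in both directions in WT, with 2 of 10 above MPP4 in all MPP3 libraries, 2 below and 6 overlapping. Igkc was at 67.4 to 379.5 CPM in MPP3 WT and 1.08 to 17.3 in MPP4 WT, and Jchain at 34.3 to 133 and 0.164 to 7.22, both without overlap. Ighm was at 194 to 796 CPM in MPP3 WT and 1079 to 1169 in MPP4 WT, and Sdc1 at 4.31 to 11.54 and 63.9 to 142. In KO, 3 of the 10, Ighm, Mzb1 and Sdc1, lay lower in MPP3 without overlap and 0 higher. Of the other lists, the neutrophil genes S100a8 and Cxcr2, the erythroid gene Klf1 and the T cell gene Trbc1 lay higher in MPP3 without overlap in both genotypes, Epor of the erythroid list in KO, and Cd4 lay lower in both. Ms4a1 of B cells, Mmp9 of neutrophils and Cd8a of T cells were at 0 counts in 9 of the 16 libraries each. Their part in the differences of the members was not tested.

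KO and WT mice were compared to ask whether these mRNAs depend on Ebf1 genotype. In MPP3, 0 members passed the threshold, and 0.0676% of all genes did (8 of 11831). At an unadjusted p below 0.05 the edgeR test gave 47 members, all higher in KO, where 10.5% of all genes passed and 4.29% were higher. This count was 17 without MPP3 KO library 2, 21 without MPP3 WT library 2 and 31 without MPP3 KO library 3, all higher in KO, where 7.72%, 7.17% and 8.19% of all genes passed. DESeq2 called 1 member, Rpl10, where it called 1.82% of all genes. The direction was shared by nearly all members: 86 of 88 values were positive, against 48.8% of all genes. The median was 0.15 (log2), or 10.8% above WT, and -0.0055 over all genes. All 77 core values were positive, from 0.036 for Rpl22 to 0.29 for Rps21. In 21 members the KO values lay above the WT values without overlap, as in 2.17% of all genes.

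Rpl10 (ENSMUSG00000008682, chrX:74270812-74273135), an X-linked protein that joins the large subunit late in its assembly, had the smallest p of the members. The WT libraries were at 668, 651, 676 and 714 CPM and the KO libraries at 749, 799, 829.8 and 785, without overlap (0.22, SE 0.054, FDR = 0.164). Rps21 (ENSMUSG00000039001, chr2:180257377-180258445), a small subunit protein, had the highest value. It was at 89.6, 79.8, 81.0 and 87.6 CPM in WT and 100.4, 112, 103 and 98.0 in KO, also without overlap (0.29, SE 0.094, FDR = 0.284). Rps27 was at 520.5, 575, 577 and 519 CPM in MPP3 KO, above all 4 WT values given above (0.25, SE 0.081, FDR = 0.282). Rpl17 (ENSMUSG00000062328, chr18:74998558-75003381) was at 253, 254, 289 and 292 CPM in WT and 317, 352, 329.6 and 289.7 in KO, where the groups overlapped (0.24, SE 0.087, FDR = 0.318). The negative values belonged to the processed copies Rps3a3 (-0.21, SE 0.20, FDR = 0.766) and Rps3a2 (-0.073, SE 0.20, FDR = 0.943).

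In MPP4, 0 members passed and 0.0169% of all genes did (2 of 11831). At an unadjusted p below 0.05 the edgeR test gave 26 members, all higher in KO, where 12.8% of all genes passed and 5.68% were higher. Single libraries moved this count in both directions, with all members that passed higher in KO. It was 53 without MPP4 KO library 4 (14.1% of all genes), 13 without MPP4 WT library 3 (10.1%), 15 without MPP4 KO library 2 (9.76%) and 17 without MPP4 WT library 2 (9.97%). DESeq2 called Rpl6, Rpl36al and Rpl37rt, all higher, where it called 2.58% of all genes. With sex as a term edgeR called 1 member, Rpl6, and 1.55% of all genes. Again 86 of 88 values were positive, against 47.3% of all genes, with a median of 0.12 (log2), or 9.03% above WT, and -0.013 over all genes. The groups did not overlap for 6 members, Rpl6, Rpl8, Rpl23a, Rps9, Rps13 and Rps26, all higher in KO, where 2.83% of all genes were higher without overlap. Of these, 3 also had KO above WT without overlap in MPP3.

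Rpl6, a large subunit protein, had the smallest p of the members in MPP4. It was at 1135, 1112, 1118 and 1134 CPM in WT and 1331, 1452, 1220.3 and 1282 in KO (0.23, SE 0.066, FDR = 0.187). The 4 highest values were those of processed copies. Rps4l was at 25.7, 16.6, 15.7 and 18.1 CPM in WT and 28.3, 37.9, 18.2 and 31.9 in KO (0.61, SE 0.23, FDR = 0.282). Rpl37rt was at 389, 335, 296 and 321 CPM in WT and 422, 410.4, 450.1 and 385 in KO (0.31, SE 0.092, FDR = 0.193). Both pairs of groups overlapped. Rpl6l and Rps3a2 were at 0.40 and 0.39 (FDR = 0.420 and 0.425). The lowest values were those of Rps19bp1 (-0.0031) and Rpl36 (-0.0013), both within 1 SE of 0, followed by Rpl5 (0.0069, SE 0.077).

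**Figure D4:**
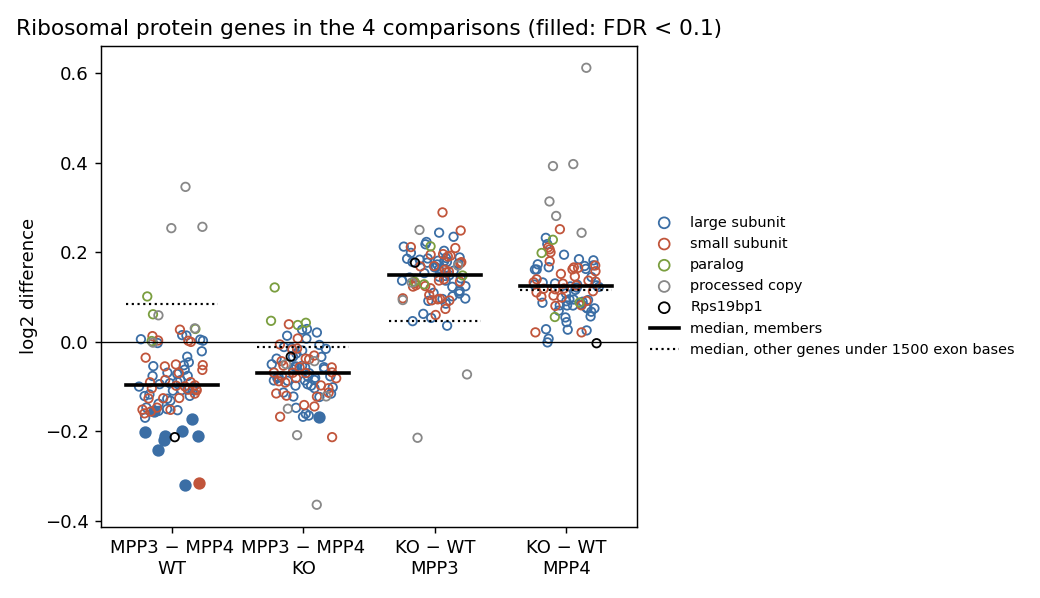
Log2 difference (y axis) of the 88 genes in the 4 comparisons, coloured by kind, with filled points where FDR was below 0.1. Solid bars are the medians of the members (-0.10, -0.069, 0.15 and 0.12 from left to right) and dotted bars those of 1189 other genes with under 1500 bases of exon (0.084, -0.012, 0.047 and 0.12).

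Genes outside the members with less than 1500 bases of exon had a median of 0.047 (log2) in MPP3 and 0.12 in MPP4, and 64.3% and 74.8% of them were positive. The 33 members under this length had medians of 0.15 and 0.16, and the 55 others 0.15 and 0.11. As above, the summed exons are not the length of the mRNA. Other genes above 100 CPM had medians of 0.025 and 0.014. The plasma and B cell genes summed to 533 to 1630 CPM in MPP3 WT and 375 to 717 in MPP3 KO, and to 1440 to 1533 and 1368 to 1750 in MPP4 WT and KO. Single genes of the list stood apart by genotype where the sums did not, with 4 of 10 below WT in all KO libraries in MPP3 (Igkc, Jchain, Mzb1 and Cd79a) and 0 above. In MPP4, Igkc and Cd79a were among those below. In MPP3 KO, Igkc was at 0 in 3 of 4 libraries and reached 60.9 CPM in the other, and Jchain was at 0 to 20.6 CPM, both below all MPP3 WT values. In MPP4 KO, Igkc was at 0 in 3 of 4 libraries and at most 0.221 CPM, below all MPP4 WT values, and Jchain at 0.517 to 2.27 CPM overlapped with WT. Over the 8 genes of the list that were tested, the median for KO against WT was -2.14 (log2) in MPP3 and -0.39 in MPP4. Of these, 5 in MPP3 and 2 in MPP4 had an unadjusted p below 0.05, all lower in KO, and 0 were called (edgeR). Erythroid, mature neutrophil and T cell sums overlapped between the genotypes in both populations. Of the single genes of these lists, 8 in each, 1 did not overlap in MPP3, Cxcr2 of neutrophils, at 5.61 to 10.8 CPM in WT and 11.0 to 25.7 in KO, and 0 in MPP4. Over the 5 neutrophil genes tested, the median for KO against WT was 0.28 (log2) in MPP3, with 5 of 5 values positive, and 0.48 in MPP4, with 4 of 5 positive. These medians had the sign of the members' medians. Of 6 genes that mark the sorted populations, Kit was lower in KO without overlap in MPP3, and 5 overlapped. In MPP4, Kit and Flt3 were lower and Ly6a higher without overlap, and 3 overlapped. Kit was at 702 to 835 CPM in MPP3 WT, 642 to 690 in MPP3 KO, 496 to 575 in MPP4 WT and 379 to 429 in MPP4 KO. In MPP4 WT and KO, Flt3 was at 1159 to 1357 and 935 to 1089 CPM and Ly6a at 47.1 to 51.9 and 53.3 to 77.6. The part of transcript length and of these markers in the values of the members was not tested.

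Age was lower in the KO mice, and the values were repeated with it. With age as a term, 13 members in MPP3 and 7 in MPP4 had an unadjusted p below 0.05, where 8.7% and 8.51% of all genes did. The share in MPP4 was near this background, and 0 members were called in either population. The medians were 0.13 and 0.10. Among the 11-week-old mice alone (2 WT and 2 KO), the medians were 0.12 in MPP3 and 0.13 in MPP4, with 82 and 79 of 88 values positive and 0 calls. Without MPP3 WT library 2, which had the lowest share of all, the MPP3 median was 0.12. Leaving out MPP3 KO library 1 gave 1 call in MPP3, Rpl10, where calls over all genes rose from 8 to 72 (0.609%).

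The genotype effect was not shown to differ between populations. The edgeR interaction gave 0 calls among the members and 0 at an unadjusted p below 0.05, where 0.0% of all genes were called and 2.28% had such a p, with 0 higher and 0 lower calls among all genes. DESeq2 also called 0 members, and 0.0676% of all genes. The median of the member values was 0.025 (log2). With the mouse as a block, 5 members had an unadjusted p below 0.05, where 5.88% of all genes did, and 0 were called. In both populations 84 of the 88 genes had a positive value, and 17 also had an unadjusted p below 0.05 in each, where 32.8% of all genes were positive in both and 1.6% also passed in both, but the MPP3 and MPP4 libraries were treated as coming from the same mice.

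Medians were also taken over subsets of the members. The 46 large subunit genes had medians of -0.11, -0.074, 0.16 and 0.10 (log2), first between the populations in WT and KO mice and then between the genotypes in MPP3 and MPP4 cells, and the 31 small subunit genes -0.10, -0.070, 0.14 and 0.13. In WT, 9 large and 1 small subunit genes were called lower in MPP3, and 16 and 2 had an unadjusted p below 0.05. Over all members 19 of 88 did, near the 22.1% of all genes. The interaction value was positive in 35 large and 13 small subunit genes, and in 50.6% of all genes. The difference between the subunits was not tested. The 22 Diamond-Blackfan anaemia genes had medians of -0.10 between the populations in WT, 0.16 for KO in MPP3 and 0.12 for KO in MPP4, and the other 55 core genes -0.10, 0.15 and 0.12. Of the anaemia genes, Rpl11, Rpl31 and Rps27 were called lower in MPP3 WT. Rps19, the best known of them, was at 2179, 1913, 2241 and 2248 CPM in MPP3 WT and 2372, 2144, 2142 and 2231 in MPP4 WT, which overlapped (-0.051, SE 0.063, FDR = 0.725). Its KO values were 0.13 in MPP3 (SE 0.063, FDR = 0.511) and 0.13 in MPP4 (SE 0.063, FDR = 0.388). The 4 X-linked genes (Rpl10, Rpl36a, Rpl39 and Rps4x) had medians of -0.10, 0.18 and 0.10 in the same order. The 4 paralogs had medians of 0.045 between the populations in WT, 0.045 in KO, 0.14 for KO in MPP3 and 0.14 for KO in MPP4, with 4 of 4 values positive in each of these comparisons. The 6 processed copies had medians of 0.16 between the populations in WT, -0.14 in KO, 0.11 for KO in MPP3 and 0.35 for KO in MPP4, where 5, 0, 4 and 6 of the 6 values were positive. Between the populations in WT both medians were positive, where that of the core genes was -0.10. None of these 10 genes was called in these comparisons without the block (edgeR, with 0, 0, 2 and 1 paralogs and 0, 0, 0 and 2 copies at an unadjusted p below 0.05).

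Many ribosomal protein genes carry small nucleolar RNAs, guides for ribosomal RNA modification, in their introns. The annotation placed 58 such genes inside 30 members, all of them core genes. The hosts had medians of -0.088, 0.14 and 0.11, and the 47 core genes without one -0.11, 0.16 and 0.12. The 13 core genes with the motif at their annotated start had medians of -0.10, 0.17 and 0.10, and the 44 core genes with a window but no motif -0.10, 0.16 and 0.12. Of the genes whose windows are printed above, Rps27, with the motif, and Rpl27a, Rpl11 and Rpl36a, without it, were called lower in MPP3 WT.

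Lists of related machinery were set beside the members, first between MPP3 and MPP4 of WT. There 15.1% of all genes were called, 8.33% as lower and 6.8% as higher. The mitochondrial, RNA polymerase I and assembly lists had smaller shares of calls than all genes. Ribosomal proteins under other names include Fau, a small subunit protein made as a ubiquitin-like fusion, and Rack1, a small subunit scaffold (listed as Gnb2l1). Fau was lower in MPP3 WT (-0.18, SE 0.066, FDR = 0.0869) and Rack1 was not called (0.029, SE 0.069, FDR = 0.880). Of 78 mitochondrial ribosomal proteins, which build the separate ribosome of mitochondria, 2 were higher in MPP3 WT, Mrpl16 (0.35, SE 0.079, FDR = 0.00677) and Mrpl20 (0.19, SE 0.066, FDR = 0.0813), and their median was 0.018. Of 15 genes for RNA polymerase I, which transcribes ribosomal RNA, 1 was higher, its subunit Polr1b (0.38, SE 0.084, FDR = 0.00551). Of 54 ribosome assembly factors 1 was lower, Tcof1, the nucleolar factor mutated in Treacher Collins syndrome (-0.48, SE 0.085, FDR = 0.000912), and their median was 0.061.

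Of 36 initiation factors, Eif4g2 was lower (-0.20, SE 0.048, FDR = 0.0100) and the cap-binding protein Eif4e higher (0.17, SE 0.056, FDR = 0.0710) in MPP3 WT. Of all genes, 15.1% were called in this comparison. None of the 7 elongation factors was called (edgeR, 0 of 7 at an unadjusted p below 0.05). They had a median of -0.070. Of 18 growth signalling genes, 2 were higher: Deptor, an inhibitor of mTOR (2.02, SE 0.19, FDR = 2.35e-06), and the kinase Rps6ka3 (0.67, SE 0.15, FDR = 0.00650).

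Between the populations of KO mice the calls in these lists went in both directions. Of all genes 17.9% were called there, 9.18% as lower and 8.71% as higher, and each list held a smaller share of calls than the 17.9%. Of the 54 assembly factors, 1 was lower in MPP3 KO, Tcof1 (-0.49, SE 0.085, FDR = 0.000725), and 2 were higher, Ltv1, which acts in small subunit maturation (0.27, SE 0.087, FDR = 0.0466), and Wdr12, which acts in large subunit maturation (0.20, SE 0.071, FDR = 0.0714). Of the 78 mitochondrial ribosomal proteins, 1 was higher, Mrpl16 (0.28, SE 0.079, FDR = 0.0250), and 2 were lower, Mrps6 (-0.36, SE 0.094, FDR = 0.0150) and Mrps10 (-0.21, SE 0.079, FDR = 0.0974). Of the 36 initiation factors, 2 were higher, Eif4e (0.20, SE 0.056, FDR = 0.0232) and Eif1a (0.19, SE 0.071, FDR = 0.0838), and 1 was lower, Eif4g2 (-0.13, SE 0.048, FDR = 0.0756). Of the 7 elongation factors, 1 was lower, Eef2, the translocase of elongation (-0.27, SE 0.090, FDR = 0.0604). Both growth signalling genes called in WT were also higher in KO, Deptor (2.01, SE 0.19, FDR = 2.17e-06) and Rps6ka3 (0.54, SE 0.15, FDR = 0.0233), and these were the 2 calls among the 18. None of the 15 RNA polymerase I genes was called (edgeR, 0 of 15 at an unadjusted p below 0.05). Neither Fau (-0.12, SE 0.065, FDR = 0.283) nor Rack1 (-0.068, SE 0.069, FDR = 0.623) was called.

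Between genotypes no gene of these lists was called. In MPP4 all 7 elongation factors had positive values, 4 of them at an unadjusted p below 0.05, where 47.3% of all genes were positive and 12.8% passed, with a median of 0.14 (log2). In MPP3, 6 of the 7 were positive and 3 had an unadjusted p below 0.05, where 48.8% and 10.5% of all genes did, with a median of 0.10. Eef1b2 had the smallest p of the list in MPP4 (0.24, SE 0.070, FDR = 0.187). Mitochondrial ribosomal proteins had medians of 0.063 in MPP3 and 0.083 in MPP4, initiation factors 0.066 and 0.092, and assembly factors 0.031 and 0.043. RNA polymerase I genes were at 0.026 and 0.021 and growth signalling genes at -0.034 and -0.012. Larp1, which binds the TOP motif, was at 0.24 in MPP3 (SE 0.10, FDR = 0.421) and 0.33 in MPP4 (SE 0.10, FDR = 0.203). Fau and Rack1 had positive values in both populations, 0.25 and 0.11 in MPP3 (FDR = 0.172 and 0.628) and 0.18 and 0.21 in MPP4 (FDR = 0.252 and 0.226).

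**Figure D5:**
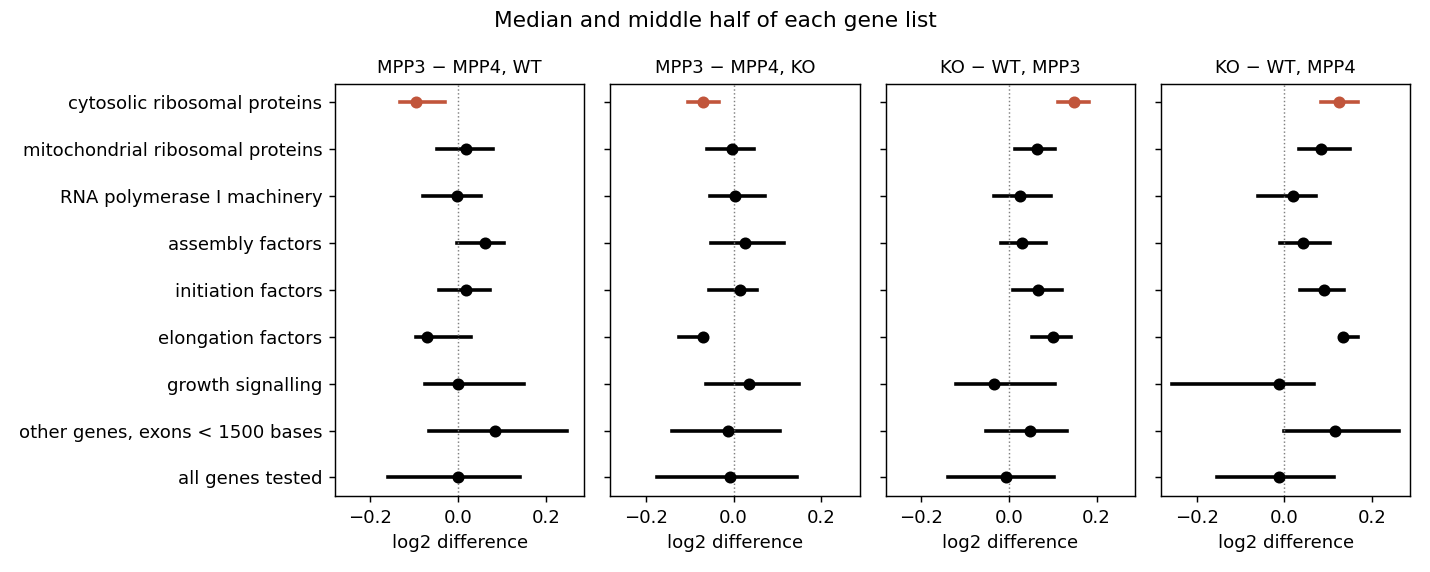
Median (point) and interquartile range (line) of the log2 difference (x axis) for the members, 6 related lists, 1189 other genes with under 1500 bases of exon and all 11831 genes, in the 4 comparisons. The members (red) lie left of 0 in both population comparisons and right of 0 in both genotype comparisons, and the medians of all genes lie between -0.013 and -0.00039.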

How the data were processed

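MPP3 and MPP4 poly(A) RNA was prepared with a low-input kit and sequenced as paired reads. Per the labels' processing notes the authors used STAR 2.7.3a on mm10 and featureCounts 2.0.0. The authors deposited raw counts per gene for each population, and a table of normalised signal, in which they divided the counts by DESeq2 (1.28.1) size factors after keeping genes with a group mean above 100 counts. Each entry of the latter lay within 0.178 of the raw count over 1 factor per library, and the symbols were joined to gene identifiers by these values. Strand use and annotation release are not given in the sources used here, so overlapping genes and near-identical copies are uncertain.

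edgeR 4.0.16 in R 4.3.3 was run on the raw counts of the 11831 genes (TMM, quasi-likelihood F-test), with all 16 libraries in 1 fit, 1 mean per group and no covariate. Benjamini-Hochberg adjustment ran over all genes, with calls at FDR below 0.1. CPM used TMM-scaled library sizes (factors 0.975 to 1.03). The code was tested on simulated data. Where libraries of a group are separate mice, p-values measure the spread between mice. The members and lists were chosen with earlier results of these data known, so no test over a list was made. Named genes were taken from a fixed rule: a list of 27 members, the 4 highest and 4 lowest log2 values of each comparison between 2 groups and the 3 smallest p of each other list. Not every gene that the rule gives is named: the others, mostly without a call, enter the counts and medians. Members named outside the rule were chosen after their values were seen. A few genes are not reported here. The MPP3 and MPP4 libraries of 1 number within a genotype correlated in their deviations from the group means with r between 0.422 and 0.666 in all 8 pairs. For each MPP3 library the own number was the best match, in 8 of 8, so mouse was used as a block. From the MPP4 side this did not hold throughout. MPP4 WT library 2 correlated more with MPP3 KO library 4 (0.511) than with MPP3 WT library 2 (0.422), and MPP3 WT library 1 was close (0.409). WT and KO libraries of 1 number correlated between -0.568 and 0.0141 and were not paired.

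Alternatives were DESeq2 1.42.0, RLE scaling, TMM without the members, other filters, sex or age as a term, summing named pseudogenes with their parents (272 assigned), leaving out mouse WT1 or each library, and only the 8 libraries compared. The fit of 11-week-old mice was added after seeing the data. Positions are from GENCODE M21 (GRCm38) and start windows from RefSeq (GRCm38.p6).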

Additional observations from a re-analysis of the deposited data

Results flagged for a closer look

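In the library of MPP3 WT mouse 2, the share of counts from the 88 genes was 5.49%, apart from the 5.86% to 5.89% of the other 3 MPP3 WT libraries. The same library was low for Rpl13a (1153 CPM, others 1288 to 1314), Rpl37rt (293 CPM, others 366 to 370.0), Rplp1 (532 CPM, others 591 to 603) and Rps3 (1384 CPM, others 1659 to 1667). Rpl6l was low at 4.70 CPM in the library of MPP3 KO mouse 3, where the others were at 5.58 to 5.72. Each gap to the nearest library exceeded Dixon's 95% critical value, which chance alone passes in about 1 group in 20. Of 152 groups looked at, 6 met it, which is no more than this chance rate gives. Of these, 5 were in the library of MPP3 WT mouse 2, and they are not independent, since the core genes varied together. Without that library the mean share in MPP3 WT was 5.88%.

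Of the members under the count minimum, Rpl3l reached 72 counts in a library and Rpl39l 24, above the 3 counts that a count of 0 allows.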

How the results depend on the processing

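Of the 279 repeats of the main values, 249 stayed within 1.5 times the count, or within 1 SD between replicates for a median or share. The share of all genes called moved with the setting too and is given in brackets after each count of members. Between populations in WT (10 members called, 15.1% of all genes), the count was 5 with every gene of at least 1 count (5.65%). It was 3 without mouse WT1 (12.8%) and 0 in the 11-week-old mice alone (6.67%), where 2 mice a genotype remain. With the replicate block it was 32 (24.8%), and without single libraries between 4 and 11 (11.6% to 15.3%). In KO (1 called, 17.9%) it was 0 with at least 1 count (6.97%), 0 in the 11-week-old mice (7.54%) and 0 with only the 8 libraries compared (16.7%). It was 2 with sex as a term (21.1%), 2 without mouse WT1 (18.6%) and 18 with the replicate block (28.3%). Without single libraries it was between 0 and 9 (14.3% to 18.4%). For KO against WT (0 called), DESeq2 called 1 in MPP3 (1.82%) and 3 in MPP4 (2.58%), and sex as a term gave 1 in MPP4 (1.55%). Leaving out single libraries gave between 0 and 1 in MPP3 (0.00843% to 1.16%) and 0 in MPP4 (0.00844% to 0.346%). With the replicate number as a block, which pairs no mice here, both stayed at 0. The interaction stayed at 0 throughout. Apart from fewer mice or more genes tested, the cause was not tested.

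The medians of the 4 comparisons between 2 groups kept their sign in every repeat. That of the interaction, 0.025, did not: it was -0.013 without mouse WT1, -0.0018 with pseudogenes added and between -0.019 and 0.048 without single libraries. The other medians without single libraries lay between -0.116 and -0.0691 in WT and between -0.111 and -0.0416 in KO, and for KO against WT between 0.121 and 0.174 in MPP3 and between 0.0943 and 0.168 in MPP4. Adding pseudogenes moved the mean shares to 6.21% in MPP3 WT, 6.73% in MPP3 KO, 6.52% in MPP4 WT and 7.06% in MPP4 KO, in the same order. Mean shares without single libraries lay between 5.74% and 5.88%, 6.17% and 6.36%, 6.00% and 6.21%, and 6.50% and 6.73% in those groups. Rps4l in MPP3 turned from 0.25 for KO against WT to -0.019 with age as a term.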
